A study of Homo sapiens with 12 samples.

Results

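Mitochondrial ribosomal protein genes were taken as the rows of the gene count table whose Ensembl ID carried a protein-coding symbol starting with MRPL or MRPS. Of 57820 rows, 156 had a name with either start, and 80 of these (pseudogenes, antisense and other non-coding genes) were left out, which left 76 genes. All 76 passed the filter on low counts. No row was matched by ID to MRPL45 or MRPS21, and these genes were not analysed here. Proteins of the large subunit are encoded by 50 of the 76, among them MRPS30 and MRPS18A in spite of their symbols, and proteins of the small subunit by 25. MRPS36 carries the family's name but is known as a component of the alpha-ketoglutarate dehydrogenase complex, and it was kept because the rule takes it.

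The RNA came from JVM3, HG3 and MEC1, 3 established human lines of chronic lymphocytic leukaemia (CLL, a B cell malignancy). For every line there were libraries labelled WT for U1 and libraries labelled with the mutant U1 g.3A>C, hence 6 groups of 2 technical replicates, 12 libraries in all. The labels name no treatment or time point, and they do not say how the mutation was brought into the cells or whether a group is 1 clone. The question the design puts is what changes in RNA levels and splicing when a line carries the mutant U1. Across lines the unit of replication was the line (n = 3), and within a line p-values measure the spread between technical replicates only. Library totals were 29880079 to 39716818 counts assigned to genes, and a second table gave 15537369 to 17917160 splice junction reads in each of 6 columns, 1 per line and U1 status. The B cell markers MS4A1, CD79A, CD79B and PAX5 were above 1 count per 1e6 of the library total in each library. The 5 T cell markers summed to 0.251 to 1.09 on that scale with 1 at 0 in all 12 libraries. On the same scale 5 myeloid markers summed to 2.075 to 14.4, and 5 epithelial and fibroblast markers to 6.46 to 16.83. In each of these 2 lists 1 gene was above 1 in every library, ITGAM and CDH1.

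Mitochondria carry their own ribosome, which translates the few proteins encoded by the mitochondrial genome, all of them parts of the respiratory chain and ATP synthase. Its ribosomal RNAs come from mitochondrial DNA, while its proteins are encoded in the nucleus, made in the cytosol and imported. In splicing, U1 small nuclear RNA recognises the 5' splice site, where an intron begins, by base pairing through its own 5' end, and the base at its position 3 faces base 6 of the intron. The genes of the mitochondrial ribosome are ordinary intron-containing housekeeping genes, so both their RNA level and their exon choice can be read in these libraries.

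Exons on which splicing results below turn are shown first, because whether an extra or a missing exon keeps the reading frame can be read from them. Letters are from GENCODE release 29 transcripts, and coordinates are those of the junction table (hg19), matched to the transcripts by intron lengths. The MRPL30 exon lies at chr2:99803382-99803481 (plus strand), and its capitals mark the first stop codon in the frame of the MRPL30 start codon. The transcript that carries this exon is annotated as a processed transcript, and the start codon was taken from another transcript of the gene. The MRPL2 exon lies at chr6:43023283-43023356 (minus strand) in the coding region and carries no capitals.
MRPL30 exon: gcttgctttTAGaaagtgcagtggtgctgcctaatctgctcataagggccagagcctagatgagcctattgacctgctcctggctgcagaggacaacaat
MRPL2 exon: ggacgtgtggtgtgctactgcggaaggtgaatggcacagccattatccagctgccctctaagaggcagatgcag
The MRPL30 exon is 100 bases long, is not a multiple of 3, and its TAG starts at base 10 of the exon, 88 bases before the exon's end. The MRPL2 exon is 74 bases, not a multiple of 3, and without it the first stop in frame begins 44 bases after the point of joining, in the last exon.

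Levels of the members spanned a wide range. Per kilobase of exon, the median member stood at 13.4 to 17.3 CPM (counts per 1e6, TMM-scaled) per library. MRPL51, a large-subunit protein found in mitochondria alone, was highest with a median of 57.9 CPM per kilobase over the 12 libraries (range 49.7 to 66.1). MRPS18B, of the small subunit, followed with 51.5 (47.7 to 57.0) and MRPS34, also of the small subunit, with 51.3 (33.2 to 80.9). The ranges of these 3 overlapped, so their order is not resolved. MRPL30 was lowest with 0.415 (0.126 to 1.1). MRPL53 (2.19, range 1.61 to 3.29) and MRPS24 (2.27, range 1.89 to 3.88) came next and overlapped each other.

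Of the 76 members, 16 share exon bases with another gene of the same strand, among them MRPL30 and MRPL53. The largest shares, with the rank among the 76 in level per kilobase, were MRPL12 (68.2%, rank 50), MRPL53 (45.2%, rank 75), MRPL38 (37.5%, rank 73) and MRPS28 (35.8%, rank 52). Next came MRPS17 (27.0%, rank 70), MRPS24 (23.2%, rank 74), MRPL33 (21.05%, rank 41) and MRPL30 (19.5%, rank 76). These were listed after their values were seen, and whether sharing goes with a low level was not tested. In GENCODE release 29, MRPL30 shares 19.5% of its exon bases with 2 longer genes of the same strand and MRPL53 shares 45.2% with 1. The deepest junction of MRPL30 had 276 to 374 reads per column, more than the whole gene count of the 2 libraries behind that column (28 to 190). In MRPL53 the junction had 363 to 686 reads and the gene count was 146 to 297. Among 66 members whose junctions could be matched these were the 2 in which a junction exceeded the gene count. The counting rule for reads in shared exons is not given here, so the level of both genes is the count in the authors' table and may leave out reads of shared exons.

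Across the 3 lines, 3 of the 76 genes (3.95%) passed edgeR's quasi-likelihood test at an adjusted p under 0.05 over all genes. Among all 21270 genes tested the share was 3.69%, near that of the members. MRPL30 and MRPS33 were higher in mutant libraries (2 of 76, background 1.83%) and MRPL42 was lower (1 of 76, background 1.86%). The median log2 difference, mutant minus wild type, was 0.05 over the members and -0.01 over all genes tested. Leaving MRPL30 aside, the members' differences ran from -0.41 to 0.48.

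MRPL30 encodes a large-subunit protein with a bacterial counterpart. Its gene count stood at 0.530 and 0.389 CPM in the wild-type and 1.65 and 2.17 CPM in the mutant libraries of JVM3. In HG3 it stood at 0.533 and 0.365 against 2.66 and 3.19 CPM. In MEC1 it stood at 0.544 and 0.760 against 2.26 and 2.52 CPM. Each mutant library was above all 6 wild-type libraries. The difference was 2.20 on the log2 scale (SE 0.24, n = 3 lines), a 4.60-fold rise, with an adjusted p of 0.00500 by edgeR. The counts behind it were small, 11 to 24 per wild-type and 54 to 104 per mutant library. The gene's deepest junction, also an intron of 2 longer gene models, had more reads than that. It had 311 and 322 reads in JVM3, 277 and 276 in HG3 and 326 and 374 in MEC1, wild type first. The rise is thus one of the counted reads, and the level of all MRPL30 RNA was not resolved. The test of a difference between lines in this rise did not pass (adjusted p = 0.278 by edgeR), which does not show that the lines responded alike.

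MRPS33 encodes a small-subunit protein without a bacterial counterpart. It stood at 32.7 and 35.3 CPM in wild-type and 48.9 and 49.1 CPM in mutant libraries of JVM3. In HG3 the values were 39.0 and 39.8 against 60.7 and 54.4 CPM, and in MEC1 42.2 and 43.5 against 56.4 and 55.7 CPM. The groups did not overlap, with the lowest mutant library above the highest wild-type library of any line. The rise was 0.48 on the log2 scale (SE 0.05, n = 3 lines), 1.40-fold, with an adjusted p of 0.0205 by edgeR. Without JVM3 it was 0.46 and no longer passed (adjusted p = 0.0851 by edgeR).

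MRPL42 encodes a large-subunit protein without a bacterial counterpart. In JVM3 it stood at 95.7 and 102.4 CPM in wild-type and 76.03 and 82.3 CPM in mutant libraries. The values were 62.2 and 65.4 against 46.8 and 49.0 CPM in HG3, and 51.3 and 53.9 against 38.2 and 38.6 CPM in MEC1. Within each line mutant libraries were lower, while over the lines the groups overlapped because JVM3 held more of this RNA. It fell by 0.40 on the log2 scale (SE 0.04, n = 3 lines), to 0.759 of the wild-type level, with an adjusted p of 0.0333 by edgeR. The call was lost when any line was left out (log2 differences of -0.36 to -0.44, adjusted p of 0.0584 to 0.0913 by edgeR).

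**Figure D1:**
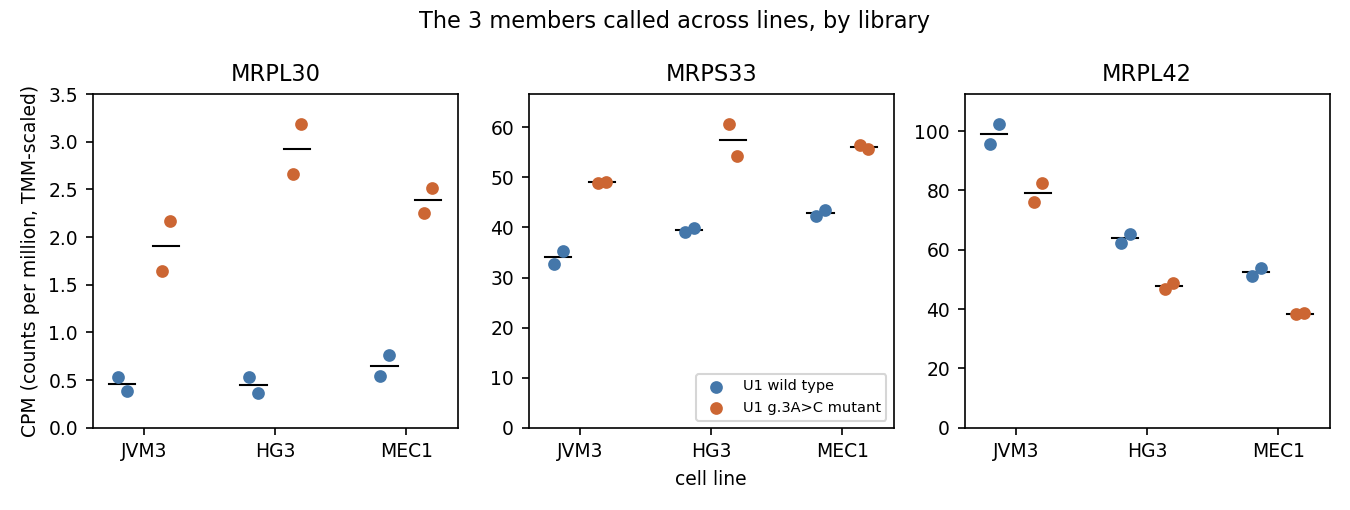
TMM-scaled CPM of MRPL30, MRPS33 and MRPL42 in each of the 12 libraries by cell line, with blue points for wild-type and orange points for mutant U1 and black bars for the mean of 2 technical replicates. MRPL30 and MRPS33 are higher and MRPL42 is lower in the mutant libraries of every line.

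Within single lines more of the members passed, as did more of all genes, since the spread there is that of technical replicates. In JVM3, 22 members passed (28.9%, background 22.4%), 19 of them higher (25.0%, background 10.4%) and 3 lower in mutant libraries (3.95%, background 12%). In HG3, 31 passed (40.8%, background 38.3%), 17 higher (22.4%, background 18.7%) and 14 lower (18.4%, background 19.6%). In MEC1, 33 passed (43.4%, background 36.6%), 24 higher (31.6%, background 18.0%) and 9 lower (11.8%, background 18.6%). Scaling to library totals alone gave 35 higher and 7 lower in MEC1, and the matching shares of all genes are not given here. That scaling put the MEC1 median log2 difference at 0.04 over all genes and 0.14 over the members. With TMM scaling the median of the members was 0.11 in JVM3 (all genes -0.02), 0.00 in HG3 (all genes 0.01) and 0.08 in MEC1 (all genes 0.00). In the same order of lines, 85.5%, 50% and 59.2% of members lay above 0.

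The summed level of the 76 genes moved little. In JVM3 the wild-type libraries summed to 3134 and 3171 CPM and the mutant libraries to 3322 and 3371 CPM. In HG3 the sums were 3462 and 3475 against 3496 and 3473 CPM, and in MEC1 3559 and 3596 against 3748 and 3682 CPM. Mutant sums were above wild-type sums in JVM3 and MEC1 and overlapped them in HG3. By subunit, the large subunit had 13 higher and 1 lower in JVM3, 13 higher and 11 lower in HG3, and 17 higher and 6 lower in MEC1, of 50 genes. The small subunit had 5 higher and 2 lower, 4 higher and 3 lower, and 7 higher and 3 lower, of 25 genes. Of all genes tested, 10.4% were higher and 12% lower in JVM3, 18.7% and 19.6% in HG3, and 18.0% and 18.6% in MEC1.

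Besides MRPL30 and MRPS33, the largest rises that passed were MRPS12 and MRPS36 in JVM3, both 0.37 on the log2 scale. MRPS12 encodes the counterpart of a bacterial protein of the decoding centre. In HG3 they were MRPL44 (0.38), whose product has a domain like that of ribonuclease III, and MRPL2 (0.35), the counterpart of a bacterial protein beside the peptidyl transferase centre. In MEC1 they were MRPL4 (0.45), a large-subunit protein with a bacterial counterpart, and MRPL38 (0.44), found in mitochondria alone. The MRPL38 call in MEC1 rested on mutant replicate 1: without it the difference was 0.29 and did not pass (adjusted p = 0.0762 by edgeR).

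The 3 falls in JVM3 were MRPS6 (-0.55), MRPL42 (-0.32) and MRPS27 (-0.22). MRPS6 is a small-subunit protein with a bacterial counterpart, and MRPS27 a small-subunit protein with pentatricopeptide repeats. In HG3 the largest falls were MRPS6 (-0.53), MRPL52 (-0.53), MRPL42 (-0.41) and MRPL36 (-0.39). In MEC1 they were MRPL42 (-0.45), MRPS16 (-0.26), MRPL23 (-0.25) and MRPL40 (-0.23). MRPL42 was thus among the named falls in all 3 lines.

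Those that passed as higher in mutant libraries within each of the 3 lines were 7 members (9.21%, background 4.34%). They were MRPL2, MRPL21, MRPL28, MRPL30, MRPL41, MRPS5 and MRPS33. MRPL42 and MRPS6 passed as lower in each of the 3 (2.63%, background 4.65%). MRPL21, MRPL28 and MRPS5 lie outside the naming rule and were chosen after their values were seen. MRPL2 had log2 differences of 0.36, 0.35 and 0.37 in JVM3, HG3 and MEC1, and MRPL41 of 0.31, 0.30 and 0.35. Across lines these gave 0.36 (SE 0.01, n = 3 lines, adjusted p = 0.0602 by edgeR) and 0.32 (SE 0.02, adjusted p = 0.0702 by edgeR), neither past the threshold. DESeq2 called both, as well as MRPS6. In 27 members no line passed (35.5%, against 43.3% of all genes) and in 24 a single line (31.6%, background 27.1%). Passing in opposite directions in different lines were 4 (5.26%, background 5.39%), MRPL17, MRPL36, MRPL40 and MRPL43, the last outside the naming rule and chosen after its values were seen.

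**Figure D2:**
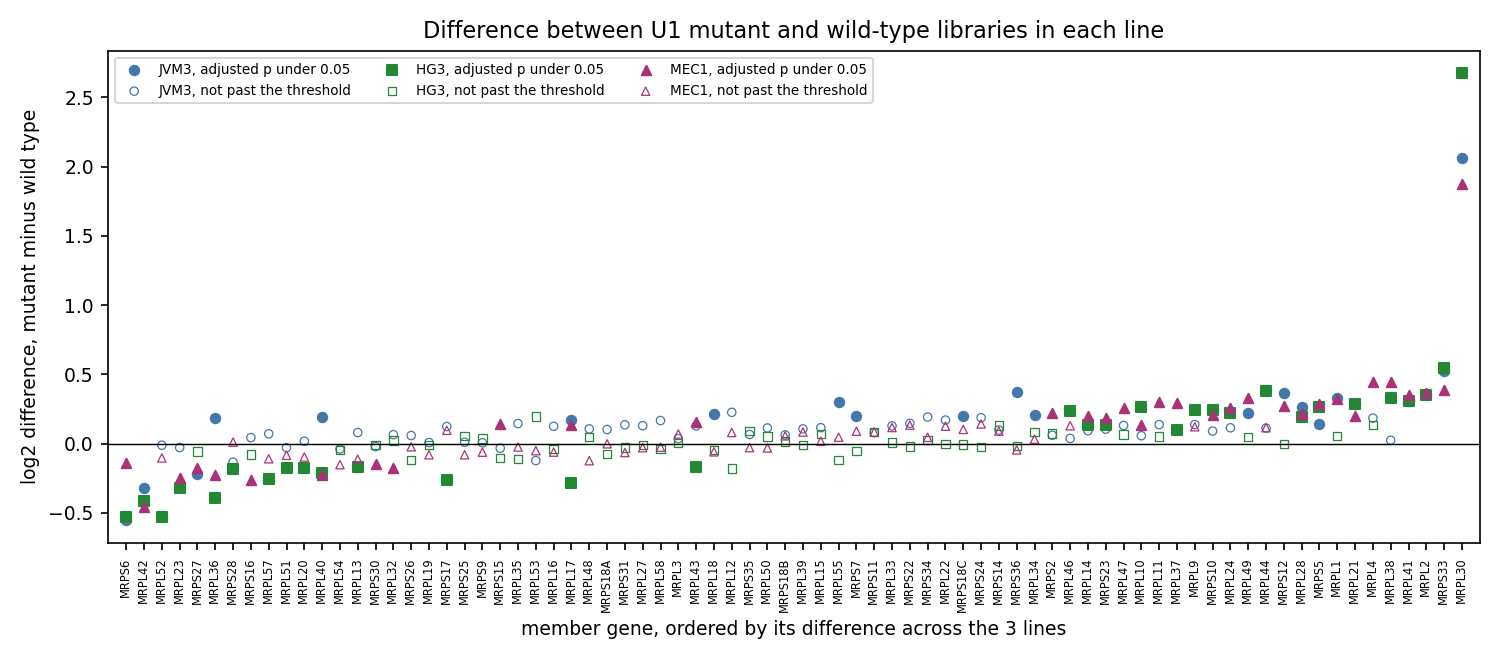
Log2 difference, mutant minus wild type, of each of the 76 members in JVM3 (blue circles), HG3 (green squares) and MEC1 (purple triangles), ordered by the difference across lines. Filled symbols passed an adjusted p under 0.05 within the line. MRPL30 stands alone at the right with 1.88 to 2.67, and the other members lie between -0.55 and 0.55.

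A response that differed between lines was found for 25 members (32.9%, background 32%) by edgeR's test of the interaction. MRPL17, a large-subunit protein with a bacterial counterpart, had the smallest p. It stood at 41.96 and 41.4 against 46.7 and 47.2 CPM in JVM3 (wild type against mutant), at 42.7 and 41.8 against 36.3 and 33.2 CPM in HG3, and at 39.2 and 40.8 against 44.9 and 42.7 CPM in MEC1. It was therefore higher with mutant U1 in JVM3 (0.17) and MEC1 (0.13) and lower in HG3 (-0.28), with an adjusted p of 5.91e-06 for the difference by edgeR. MRPL36 (0.19, -0.39 and -0.22 in JVM3, HG3 and MEC1) and MRPL40 (0.19, -0.21 and -0.23) were higher in JVM3 and lower in the other lines. Their adjusted p by edgeR was 6.20e-06 and 5.71e-05.

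MRPL52, a large-subunit protein found in mitochondria alone, fell in HG3, from 36.2 and 33.0 to 23.8 and 24.3 CPM (adjusted p for the difference between lines 3.41e-05 by edgeR). Its log2 differences in JVM3 and MEC1 were -0.01 and -0.10, which did not pass. MRPS6 fell by 0.55 in JVM3 and by 0.53 in HG3 on the log2 scale and by 0.14 in MEC1 (4.98e-05). MRPS16, a small-subunit protein with a bacterial counterpart, fell by 0.26 in MEC1, from 135.8 and 136.4 to 114.9 and 112.1 CPM (0.000145), and had 0.04 and -0.08 in JVM3 and HG3, which did not pass. These tests rest on technical replicates, so they set the libraries of the lines apart and not the lines as populations.

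Between the lines themselves, 46 of 76 members (60.5%, background 74.6%) differed in level with U1 status as a block. Here the summed wild-type and mutant libraries of a line served as its replicates, so the spread is not one between cultures of a line. The order of the member and background shares depended on the tool and the filter, and the number of genes tested differed as well. DESeq2 called 43 members and 53.4% of 27216 genes. With no filter edgeR called 41 members and 43.6% of 41805 genes, against 21270 genes tested in the main setting. HG3 was higher than JVM3 in 17 members (22.4%, background 23.5%) and lower in 7 (9.21%, background 25.6%). MEC1 was higher than JVM3 in 29 (38.2%, background 28.4%) and lower in 10 (13.2%, background 32.5%), and higher than HG3 in 20 (26.3%, background 26.9%) and lower in 9 (11.8%, background 30.6%). The 6 members with the smallest p were MRPL27, MRPS6, MRPL41, MRPL39, MRPL42 and MRPS27.

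MRPL27, the counterpart of a bacterial protein at the peptidyl transferase centre, had a mean of 68.9 CPM over the 4 libraries of HG3, 42.7 in JVM3 and 24.3 in MEC1 (adjusted p = 5.84e-06 by edgeR). All 3 pairs of lines differed. MRPS6 had 44.5 CPM in HG3 and 42.4 in MEC1 but 14.0 in JVM3, a log2 difference of 1.67 between HG3 and JVM3 and 1.63 between MEC1 and JVM3, while HG3 and MEC1 did not differ beyond their spread (-0.04, adjusted p = 0.785 by edgeR). MRPL41 was higher in MEC1, with 51.1 CPM against 26.1 in HG3 and 22.7 in JVM3, and the last pair was not resolved (adjusted p = 0.140 by edgeR).

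MRPL39 was higher in HG3, with 76.7 CPM against 47.3 in MEC1 and 34.2 in JVM3, all pairs past the threshold. MRPL42 had 89.1 CPM in JVM3, 55.8 in HG3 and 45.5 in MEC1, also with all pairs past the threshold. MRPS27 had 147.3 CPM in MEC1 and 127.9 in HG3, a pair not resolved (adjusted p = 0.100 by edgeR), and 75.6 in JVM3.

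**Figure D3:**
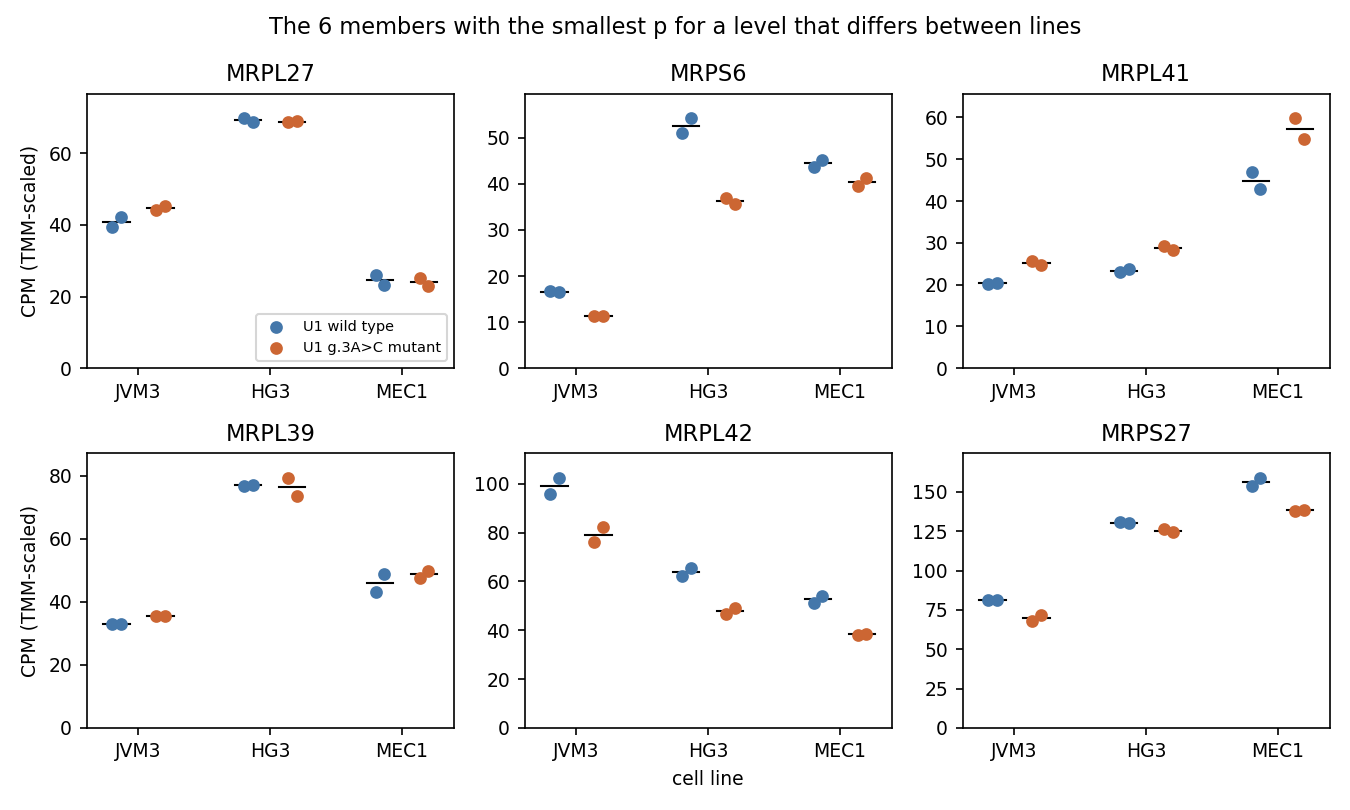
TMM-scaled CPM of the 6 members with the smallest p for a level that differs between lines, in each library by cell line, blue for wild-type and orange for mutant U1, with black bars for the mean of 2 technical replicates. MRPS6 lies at 11.3 to 16.7 in JVM3 and at 35.7 or above in the other lines, and MRPL42 falls from JVM3 to MEC1.

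Splice junctions of 66 of the 76 members could be matched. Use of a junction was its share of all reads at the same acceptor, the 3' splice site. Of 216 member junctions tested, at 92 acceptors of 55 genes, 5 passed diffSpliceDGE (adjusted p under 0.05, at least 5 percentage points and 1 direction in all lines). That is 2.31% of the member junctions against 2.78% of all 35863 tested. Used more in mutant columns were 4 (1.85%, background 2.0%) and used less 1 (0.463%, background 0.784%). Grouped by donor, the 5' splice site, 3 of 206 passed (1.46%, background 1.8%), with 3 used more (1.46%, background 1.33%) and 0 used less (background 0.469%). The 6 junction columns hold no replicates, so n is 3 lines, and percentages of single columns carry 95% Wilson intervals for counting error only.

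The MRPL30 exon printed above was rarely joined in wild-type and often in mutant columns. The junction from it to the next exon (chromosome 2, 99803481 to 99804640) took 3 of 199 reads of its acceptor in JVM3 wild type, 1.51% (0.514 to 4.34), and 67 of 252, 26.6% (21.5 to 32.4), in JVM3 mutant. In HG3 it took 3 of 205 (1.46%) and 77 of 243 (31.7%), and in MEC1 6 of 246 (2.44%) and 71 of 309 (22.98%). The mean rose from 1.80% ± 0.55 to 27.1% ± 4.4 (SD, n = 3 lines), with an adjusted p of 4.81e-08 by diffSpliceDGE. By donor, the junction into the exon (99802717 to 99803382) had 1.85% ± 1.74 in wild-type and 26.1% ± 4.6 in mutant columns (adjusted p = 2.55e-05 by diffSpliceDGE).

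Reads that skip the exon (99802717 to 99804640) were 196 and 185 in JVM3, 202 and 166 in HG3 and 240 and 238 in MEC1, wild type first. The junction after the next exon (99804720 to 99811214), the deepest of the gene, had 311 and 322, 277 and 276, and 326 and 374 reads. These 2 junctions are also introns of 2 longer gene models, whereas the 100-base exon belongs to MRPL30 alone in GENCODE release 29, and the exons beside it, of 78 and 81 bases, are shared with both. Those 2 genes had 0 to 27 counts per library. The gene count of MRPL30 rose in the same columns from 28 to 133, from 30 to 190 and from 44 to 179. What part the extra exon has in the rise of the gene count was not tested.

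**Figure D4:**
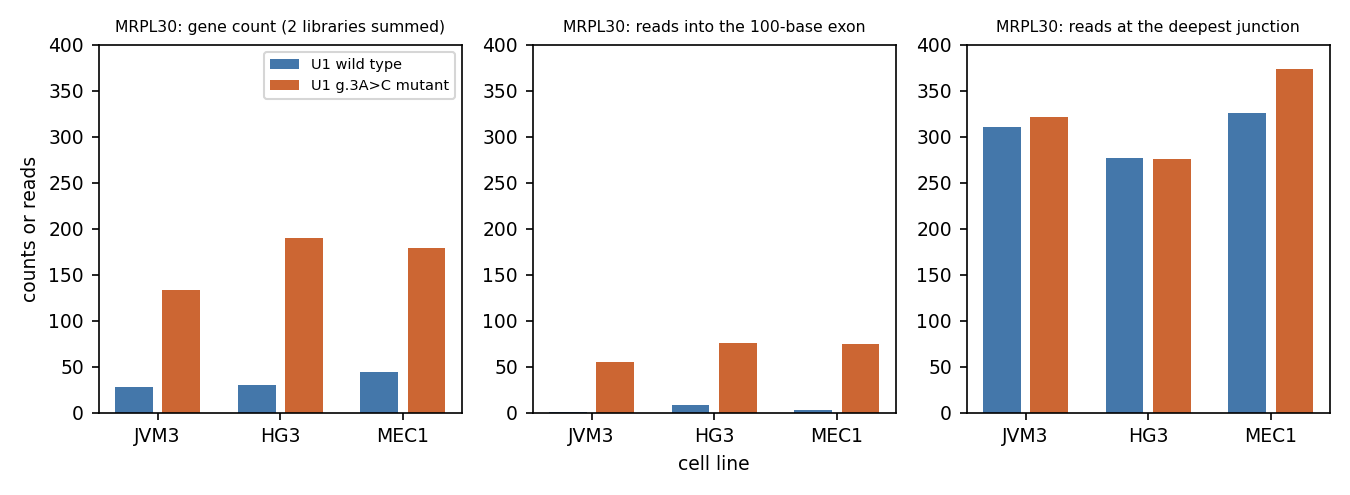
MRPL30 in each line and U1 status: counts of the gene with 2 libraries summed (left), reads of the junction into the 100-base exon (middle) and reads of its deepest junction (right), blue for wild-type and orange for mutant U1. Gene counts and exon reads are higher in all mutant columns, while the deepest junction has 276 to 374 reads in every column.

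MRPL42, whose RNA fell, also gained an exon in mutant columns. The junction from the 20-base form of its extra exon took 8 of 699 and 25 of 576 reads in JVM3, 4 of 472 and 13 of 311 in HG3, and 0 of 351 and 27 of 270 in MEC1, wild type first. The count of 0 in MEC1 wild type allows a share of up to 1.08% (Wilson). Mean use was 0.664% ± 0.594 in wild-type and 6.17% ± 3.32 in mutant columns (SD, n = 3 lines), a rise with an adjusted p of 0.00150 by diffSpliceDGE. Without MEC1 the change was 3.26 points, under the 5 points asked for. The 105-base form went from 1.62% ± 0.72 to 4.83% ± 1.61, which did not pass (adjusted p = 0.101 by diffSpliceDGE). Both forms share the junction into the exon, whose use by donor was 2.57% ± 0.84 in wild-type and 10.4% ± 4.5 in mutant columns (adjusted p = 0.00148 by diffSpliceDGE). The transcript that carries the 105-base form is annotated as a target of nonsense-mediated decay, the pathway that degrades RNA with an early stop codon. The annotation of the 20-base form is not given here.

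MRPL2 skipped its 74-base coding exon more often. The skipping junction (chromosome 6, 43022224 to 43023635) took 18 of 180 and 64 of 278 acceptor reads in JVM3, 11 of 165 and 34 of 208 in HG3, and 18 of 196 and 58 of 309 in MEC1, wild type first. Mean use was 8.62% ± 1.74 in wild-type and 19.4% ± 3.4 in mutant columns (SD, n = 3 lines), a rise with an adjusted p of 0.0136 by diffSpliceDGE. By donor it rose from 9.13% ± 2.23 to 20.9% ± 3.0 (adjusted p = 0.0189). Without JVM3 or without HG3 the change was 9.63 and 11.3 points and no longer passed (adjusted p = 0.102 and 0.128 by diffSpliceDGE). The RNA level of MRPL2 was higher in the mutant libraries of each line, as given above.

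MRPL55, a large-subunit protein, shifted in its 5' exons. A junction (chromosome 1, 228296019 to 228296656) that joins a 67-base exon rose from 25.2%, 33.6% and 48.1% of acceptor reads in wild-type columns of JVM3, HG3 and MEC1 to 48.5%, 60.4% and 72.1% in mutant columns. The mean went from 35.6% ± 11.6 to 60.3% ± 11.8 and the gain was 24.7 points ± 1.9 (SD, n = 3 lines), with an adjusted p of 0.0158 by diffSpliceDGE. The lines differed more in their starting level than in the gain. With any line left out it did not pass (adjusted p = 0.0829 to 0.138 by diffSpliceDGE), and by donor its change was 5.71 points with no call.

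MRPL32, a large-subunit protein whose import form is matured by a mitochondrial protease, was the one member with a junction used less. The junction from a 78-base exon (chromosome 7, 42976840 to 42976921) took 15.4%, 6.94% and 10.5% of acceptor reads in wild-type and 7.53%, 1.78% and 4.93% in mutant columns of JVM3, HG3 and MEC1. Mean use was 10.9% ± 4.2 in wild-type and 4.75% ± 2.88 in mutant columns (SD, n = 3 lines), a fall with an adjusted p of 0.00131 by diffSpliceDGE. The transcript with this exon is annotated as a target of nonsense-mediated decay. Limma on log ratios called the MRPL30 acceptor alone (adjusted p = 0.0390) and none of the other 4 (adjusted p of 0.145 to 0.192).

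**Figure D5:**
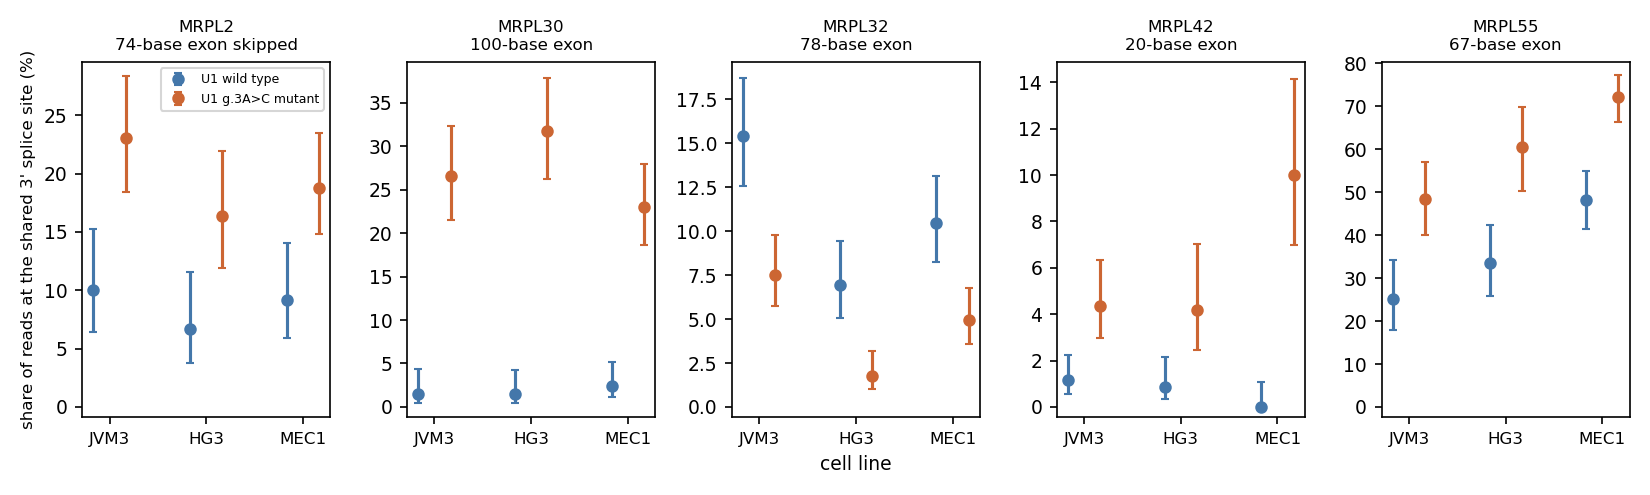
Share of reads (%) at the shared 3' splice site for the 5 member junctions that passed, by line, blue for wild-type and orange for mutant U1, with bars for 95% Wilson intervals. In MRPL2, MRPL30, MRPL42 and MRPL55 each mutant column lies above the wild-type column of its line, and in MRPL32 below it.

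Among 625 member junctions, 2 (0.32%) had at least 3 reads in each mutant column and 0 reads in the wild-type columns, against 0.0955% of all 170723 junctions, and the mirror case for 0 (background 0.0146%). Neither is in GENCODE release 29. In MRPL24, a large-subunit protein with a bacterial counterpart, a junction that skips an exon (chromosome 1, 156707926 to 156708314) had 5, 5 and 21 reads in mutant JVM3, HG3 and MEC1, 1.89%, 1.89% and 6.02% of acceptor reads. The 0 reads in wild-type columns allow up to 1.69%, 1.496% and 1.27% (Wilson). Its change of 3.27 points ± 2.38 was under the 5 points asked for. In MRPL39 a junction (chromosome 21, 26961659 to 26965124) had 5, 3 and 3 reads.

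Other genes of mitochondrial translation were read from lists of the same pathway. Of all 21270 genes tested across lines, 1.83% rose and 1.86% fell. Of 26 mitoribosome assembly and rRNA modification genes with a row, 1 rose across lines, YBEY, an endoribonuclease needed for the small subunit (0.85 on the log2 scale, SE 0.07, n = 3 lines, adjusted p = 0.00816 by edgeR). In the same list 1 fell, NSUN4, an rRNA methyltransferase that joins the subunits' assembly (-0.48, SE 0.14, adjusted p = 0.0464). Of 17 mitochondrial translation factors 3 rose: MTRF1L, a release factor (0.46), GUF1, a back-translocating GTPase (0.42), and TUFM, the elongation factor that brings in the tRNA (0.35). Their adjusted p by edgeR was 0.0414, 0.0412 and 0.04996, the last just under the threshold.

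In that list 2 fell, LRPPRC, which keeps mitochondrial mRNA stable (-0.70, SE 0.06, n = 3 lines, adjusted p = 0.00560 by edgeR), and MRRF, the ribosome recycling factor (-0.40, SE 0.05, adjusted p = 0.0338). Of 15 mitochondrial rRNAs and mRNAs, MT-CO3 (-0.55, adjusted p = 0.0226) and MT-ND3 (-0.46, adjusted p = 0.0289) fell and none rose, with a list median of -0.31. The ribosome's own RNAs, MT-RNR1 (-0.09) and MT-RNR2 (0.13), did not pass, and ribosomal RNA was depleted before sequencing. None of 9 genes of mitochondrial transcription and genome upkeep passed (median 0.15), nor did the 5 mitoribosomal proteins with other names, such as DAP3 (median 0.09). The background for all these lists was 1.83% higher and 1.86% lower. Of 8 upstream regulators, PPARGC1B, a coactivator of mitochondrial gene programmes, rose (0.56, SE 0.15, adjusted p = 0.0293), and MYC (-0.07) and NRF1 (-0.05) did not pass.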

How the data were processed

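Gene counts were deposited by the authors as raw read counts per gene for 12 libraries, and junction counts as raw reads in 6 columns, 1 per line and U1 status. Reads were processed with STAR (2.5.4b) and HTSeq (0.9.1) on hg19, also named GRCh37, per the submitters' processing notes. Per the labels' protocols, total RNA was ribodepleted and libraries were stranded. The annotation, the strand setting and how junctions were extracted are not given here. Entries that name no gene were left out: reads outside features took 17.7% to 24.9%, ambiguous reads 0.897% to 1.06% and non-unique reads 29.0% to 34.9% of a library. Technical replicates differed by more than counting noise (mean chi-square per gene 2.28 to 5.29), so each was kept.

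Genes were tested with edgeR 4.0.16 in R 4.3.3 (quasi-likelihood F-test, robust, TMM, filterByExpr on 12 libraries) with Benjamini-Hochberg adjustment over 21270 genes. Across lines and for line levels replicates were summed to 6 libraries with the line or U1 status as a block, and within lines and for the interaction 12 libraries were fitted as 6 groups. SE are over the 3 lines' log2 differences. Lengths per kilobase are all exon bases of a gene in GENCODE release 29. Junctions of at least 20 reads were tested by shared acceptor with edgeR's diffSpliceDGE. Gene names of junctions were matched by exact intron lengths and spacing to GENCODE release 29, without converting coordinates. Scripts were tested on simulated data. Alternatives were other scalings, DESeq2 1.42.0, limma 3.58.1, no filter, unsummed replicates, a replicate block, and leaving out libraries or lines. Intervals (95%) cover counting error only.

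Some items are not reported here. The genes and lists were chosen with earlier results of these data known. Named are members that passed across lines, the 4 largest rises and falls that passed within each line, the 6 smallest p for response and for level, the 3 highest and lowest per length, every called or mutant-only junction, and pathway genes that passed across lines. MRPL12 shares 68.2% of its exon bases with another gene of the same strand, 16 members share some and 29 share some with the other strand.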

Additional observations from a re-analysis of the deposited data

Results flagged for a closer look

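Of 32 members named, those named only for their subunit or shared exons left out, 14 responded to mutant U1 differently in the 3 lines. This is by edgeR's interaction test, with the adjusted p given for each. MRPL12, one of those left out, passed it too (0.0381). Of all genes tested 32% did, and 6 of the 32 were named for their small p in this test, so the count is partly fixed by the choice. The technical replicates behind it carry no spread between cultures. Opposite directions that passed in different lines were seen in MRPL17 (5.91e-06), MRPL36 (6.20e-06), MRPL40 (5.71e-05) and MRPL43 (0.00406). Falls in HG3 went with MRPL52 (3.41e-05). MRPS6 (4.98e-05) fell less in MEC1 than in the other lines, and MRPS16 (0.000145) and MRPL32 (0.00487) fell in MEC1. MRPL23 (0.0132) fell in HG3 and MEC1. MRPS12 (0.000631) rose in JVM3 and MEC1, and MRPS36 (0.00110) and MRPL55 (0.00717) rose in JVM3. MRPL44 (0.00336) rose in HG3 and MRPL4 (0.0171) in MEC1.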

How the results depend on the processing

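No member named for a change across or within lines, and no junction called by acceptor, changed direction in the alternatives run. For the response and the level between lines only the adjusted p was compared, so direction was not checked there. Junctions read in mutant columns alone were not part of this check. Across lines MRPL30, MRPS33 and MRPL42 all passed with RLE, upper quartile (4 in all, with MRPL2) or total scaling, with a filter on the 6 summed libraries (an alternative chosen after seeing the data) and with each of the 12 libraries left out (range 3 to 3). The count was 5 with no filter (6.08% of all genes passed) and 6 with DESeq2 (7.88%). It was 27 with 12 unsummed libraries (31.2%), which take technical replicates as independent, and 1 without JVM3 (MRPL30, 2.16%). Without HG3 2 passed (MRPL30 and MRPS33), and without MEC1 3 passed, MRPS6 in place of MRPL42. Whether the labels' replicate numbers pair the libraries was not tested. Correlations of same-numbered deviations were all positive and ran from 0.0171 to 0.187. With the replicate block added to the unsummed libraries the count was 27 (30.6% of all genes). Within JVM3, HG3 and MEC1 it was 31, 34 and 36, for the response 31 and for the level 65 (86.8% of all genes). All but the count of 27 were within 1.5 times of the values given.

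Leaving out 1 library gave 15 to 20 members within JVM3, 22 to 27 in HG3, 25 to 32 in MEC1, 20 to 29 for the response and 42 to 46 for the level (72.6% to 74.5% of all genes). For the other counts of this paragraph, and those of the replicate block without a percentage, the shares of all genes are not given here. A move with or against the background cannot be read from them. Member junctions with changed use numbered 2 with limma, 3 by donor, 3 at 10 points, and 3 without JVM3, 3 without HG3 or 3 without MEC1. Those read in mutant columns alone numbered 5 at a minimum of 1 read and 1 at a minimum of 5 reads. The cause of these differences was not tested, except that leaving out a line leaves 2 lines. Depth limits MRPL30 (11 to 104 counts per library) and junctions of few reads.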

Other observations

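Promoter letters (RefSeq table, 250 bases before to 50 after the start, 300 bases) were matched to 67 of the 76 members and compared with 27305 promoters of the same length, searching both strands. The YY1 motif AAGATGGC was in 19 member promoters, 28.4%, against 3.03% of all. The ETS motif CCGGAAGT, bound by GABP among others, was in 11 (16.4% against 4.44%), and the core of the NRF1 motif, GCATGCGC, in 6 (8.96% against 3.27%). The full NRF1 motif, which contains that core, was in 1 (1.49% against 1.36%), and TATAAA in 2 (2.99% against 12%). These are descriptions of letters in a window, given without a test. The median GC content was 60.3% in member promoters and 58.3% in all.

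Across the 75 members other than MRPL30, log2 differences in HG3 and MEC1 had a Pearson r of 0.655 and a Spearman rho of 0.638. JVM3 and MEC1 had 0.534 and 0.484, and JVM3 and HG3 0.464 and 0.218. Over all 21270 genes tested, in the same order of lines, r was 0.303, 0.213 and 0.262 and rho 0.353, 0.287 and 0.306, so for JVM3 and HG3 the order of members and all genes differs between r and rho. These are across genes, which are not independent replicates, and each line has its own wild-type libraries. Differences above 0 in all 3 lines were found in 31 of 76 members (40.8%, against 20.9% of all genes), and above 0 in none in 8 (10.5% against 23.5%).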
